A study of Ophthalmotilapia nasuta and Ophthalmotilapia ventralis with 60 samples.

Results

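The diencephalon of 2 cichlid fishes of Lake Tanganyika, O. nasuta and O. ventralis, was set against the other 5 dissected parts of the same brains. The comparison was defined by the dissection labels and not by any measured value: the diencephalon libraries of 5 O. nasuta and 5 O. ventralis females (10 of the 60 libraries deposited) were compared, within each species, with the mean of the brain stem, cerebellum, olfactory bulbs, optic tectum and telencephalon of the same fish (49 libraries). All fish were wild-caught, sexually mature females whose ovaries were found to hold eggs, and their age is not given. The O. nasuta females came from Mtosi and the O. ventralis females from Ulwile Island, and each species was kept in an aquarium of its own. The O. nasuta females were dissected before the O. ventralis females. Species, site of origin, aquarium and dissection order therefore cannot be told apart. No treatment was applied to either species. The diencephalon was the last part to be taken out and included the preoptic area, the hypothalamus and the pituitary, so that the label covers more than the diencephalon proper. RNA was sequenced from the 3′ end of transcripts on a single lane, and the RNA extraction batch of each sample is not given. In such bulk samples, fewer cells of a type and less RNA per cell cannot be told apart.

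The diencephalon of a teleost comprises the habenula, the pretectum, the thalamus and, in this dissection, the hypothalamus with the pituitary attached. The thalamus and the pretectum relay and sort sensory input, whereas the hypothalamus and the pituitary control feeding, reproduction, stress and osmotic balance through neuropeptides and hormones. In adult vertebrates the neurons of these regions still express many of the transcription factors that patterned them in the embryo, and dense-core vesicles, which carry peptides, are abundant in the hypothalamus.

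The diencephalon libraries held 317618 to 673182 gene counts in O. nasuta and 332342 to 796949 in O. ventralis. Levels are given as CPM, that is read counts brought to the same total with TMM factors, a correction for differences in library composition. A gene with no read in a diencephalon library may have a level of up to 3.76 to 9.45 CPM, depending on the library, and this limit covers counting error only. Of the 36499 genes in the files, 11680 had more than 15 CPM in at least 4 of the 59 libraries used and were tested, and the diencephalon libraries detected 11178 to 11537 of them. Without the diencephalon libraries 185 of these genes would not have passed that filter, and 45 of the 185 were later called higher in O. nasuta and 51 in O. ventralis. Since such genes were admitted through the part in which they are high, no adjusted p of the edgeR test is given below for those among them that are named with their values (gsx1, pomc, nmb, tbx3 and pnmt). Olfactory bulb library 5 of O. nasuta, with 25798 counts, was left out. By leading log2 distance (the root mean square difference over the 500 genes that differ most within a pair of libraries), diencephalon libraries lay on average 1.76 apart in O. nasuta, 1.72 apart in O. ventralis and 1.89 apart between the species. Their mean distance to the telencephalon, the nearest other part, was 2.57 for O. nasuta and 2.63 for O. ventralis, and that to the cerebellum, the farthest, was 4.02 and 4.09.

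The dissected part was first described with 4 marker genes, gsx1, shox2, tcf7l2 and pomc. They were chosen with earlier results of these data known, and gsx1 and pomc passed the filter only with the diencephalon libraries. Their levels are therefore no independent check of the identity of the part. In O. nasuta fish 1 to 5, gsx1, a homeobox gene expressed in the hypothalamus and pretectum of fish, stood at 78.6, 77.9, 45.8, 64.3 and 88.9 CPM in the diencephalon. In O. ventralis fish 1 to 5 it stood at 78.6, 80.6, 85.0, 49.6 and 103.2 CPM. The highest of all other libraries had 9.16 CPM for O. nasuta and 36.4 CPM for O. ventralis, so that the diencephalon libraries of each species did not overlap with any other part. The mean level in the diencephalon was 93.0 times the mean of the other parts in O. nasuta and 31.9 times in O. ventralis, with log2 fold changes of 7.02 ± 0.44 for O. nasuta and 6.27 ± 0.40 for O. ventralis (± SE). The marker shox2, a homeobox gene that marks thalamic neurons in the mouse, was more abundant still. Its diencephalon levels were 431, 333, 379, 404 and 595 CPM in O. nasuta fish 1 to 5 and 393, 586, 477, 457 and 461 CPM in O. ventralis fish 1 to 5. Again no other library reached them, as the highest had 91.6 CPM for O. nasuta and 79.8 CPM for O. ventralis, both in the brain stem. The log2 fold changes were 6.41 ± 0.18 for O. nasuta and 6.23 ± 0.17 for O. ventralis (adjusted p of 1.04e-46 and 1.09e-47, edgeR quasi-likelihood test), and the ratio of the mean level to that of the other parts was 16.9 and 19.9. The telencephalon held no read of gsx1 in either species and none of shox2 in O. nasuta. The log2 fold changes fitted in these cases, and the errors derived from them, are therefore not those of a measured ratio.

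The marker tcf7l2, a transcription factor of the Wnt pathway that is maintained in the thalamus and habenula of the adult mouse, had the highest level of the 4 but was shared with the optic tectum. Its levels in the diencephalon were 1026, 1079.8, 804, 872 and 1103 CPM in O. nasuta fish 1 to 5 and 979.7, 965, 1318, 1705 and 1058 CPM in O. ventralis fish 1 to 5. The optic tectum had 679 CPM ± 62.0 (SD, n = 5) and 746 CPM ± 49.4, respectively, and the cerebellum 22.5 and 15.7 CPM. Against the mean of the other parts the log2 fold change was 3.62 ± 0.12 for O. nasuta and 3.83 ± 0.12 for O. ventralis. Against the optic tectum alone the gene passed in O. ventralis only (FDR of 0.107 in O. nasuta and 0.00467 in O. ventralis for the test against each part). Whether this contrast with the optic tectum differed between the species was not tested. The hormone precursor gene pomc, which encodes ACTH, melanocyte-stimulating hormone and β-endorphin in the pituitary and the hypothalamus, was low and uneven. It had 1.57, 0, 22.9, 3.22 and 0 CPM in O. nasuta fish 1 to 5 and 51.4, 63.5, 43.6, 0 and 4.02 CPM in O. ventralis fish 1 to 5, while 3 of the other parts in O. nasuta and 2 in O. ventralis held no read of it. Its diencephalon levels overlapped with those of other parts in both species, since 2 O. nasuta libraries and 1 O. ventralis library were at 0. The ratio of its means was 27.6 and 59.5, no other library exceeded 5.06 CPM, and without O. nasuta fish 3, or without any of O. ventralis fish 1, 2 or 3, the gene fell below the filter.

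**Figure D1:**
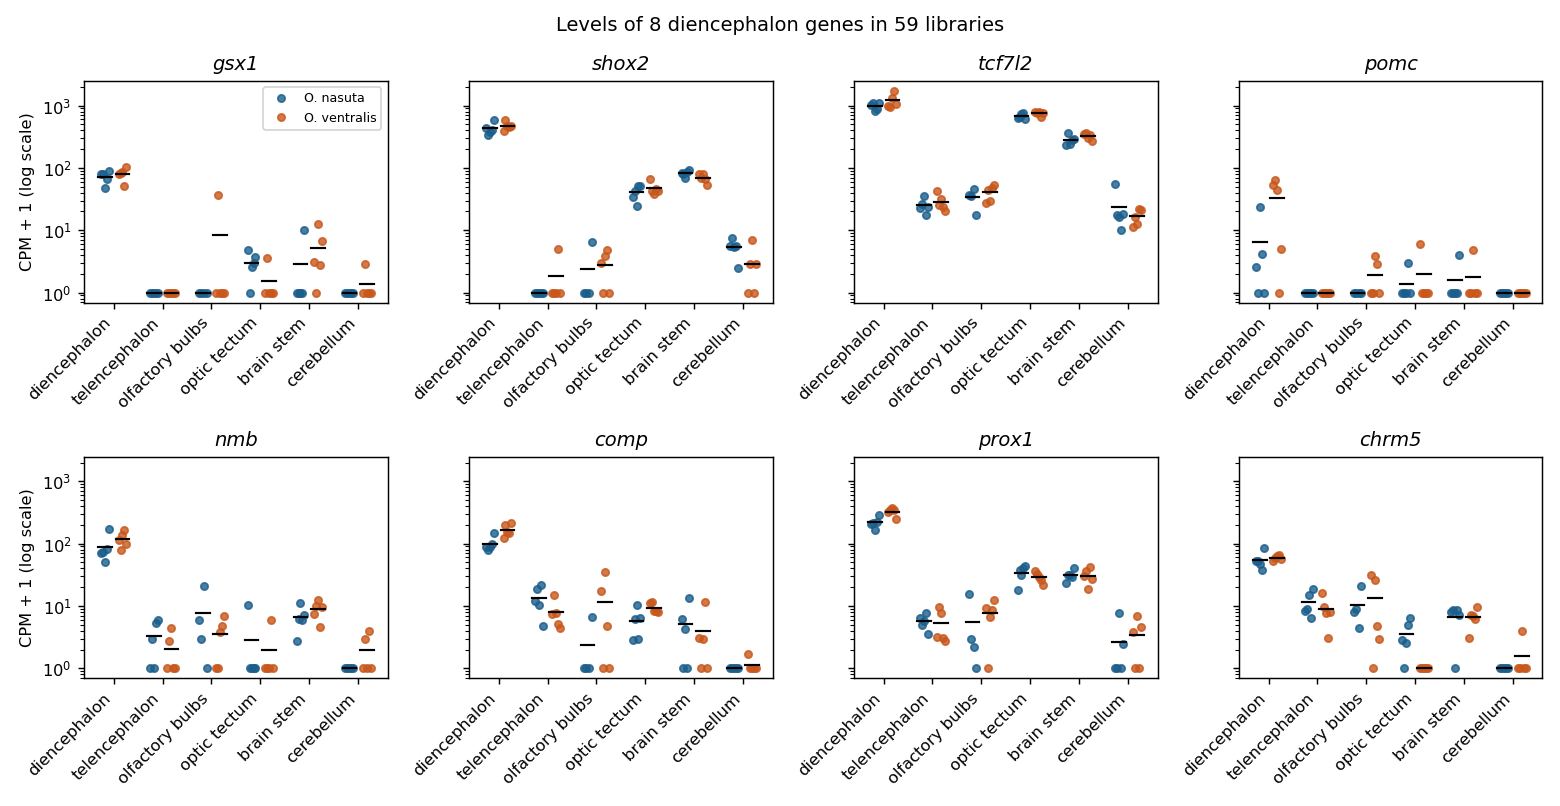
Levels of 8 genes in every library (CPM + 1, log axis) by brain part, with O. nasuta and O. ventralis side by side, points for single libraries and bars for group means. For gsx1, shox2, tcf7l2, nmb, comp, prox1 and chrm5 all 10 diencephalon libraries lie above all other libraries of their species. The level of tcf7l2 is also high in the optic tectum, and pomc is at 0 in 3 diencephalon libraries.

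Some markers of the neighbouring parts were low in the diencephalon, and others were not. The hindbrain gene hoxb3 had at most 1.61 CPM in any of the 10 diencephalon libraries, against 140.2 and 112 CPM on average in the brain stem of O. nasuta and O. ventralis. The telencephalic gene tbr1 had at most 3.22 and 3.02 CPM, and the tectal gene pax7 at most 9.81 and 6.54 CPM. The cerebellar gene zic2, by contrast, was read in all diencephalon libraries, at 16.3 to 58.0 CPM for O. nasuta and 33.7 to 107 CPM for O. ventralis, with the highest value in O. ventralis fish 5. These 4 genes were picked as label checks with their values known. The pallial gene neurod6 came close to its telencephalic level in some O. nasuta fish, as given below.

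In O. nasuta, 2122 of the 11680 genes tested differed between the diencephalon and the mean of the other parts (18.2%), of which 1359 were higher (11.6%) and 763 lower (6.53%). In O. ventralis, 2400 genes differed (20.5%), with 1453 higher (12.4%) and 947 lower (8.11%). In both species the diencephalon thus had more genes above the other parts than below them. The same direction was called in both species for 1668 genes (14.3%), of which 1093 were higher (9.36%) and 575 lower (4.92%). These are 78.6% of the genes called in O. nasuta and 69.5% of those called in O. ventralis, and no gene was called in opposite directions. A change significantly beyond a log2 fold change of 2 was found for 97 higher genes (0.83%) and 19 lower genes (0.163%) in O. nasuta, and for 108 (0.925%) and 26 (0.223%) in O. ventralis. In both species at once, 78 genes passed this limit upwards (0.668%) and 12 downwards (0.103%).

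**Figure D2:**
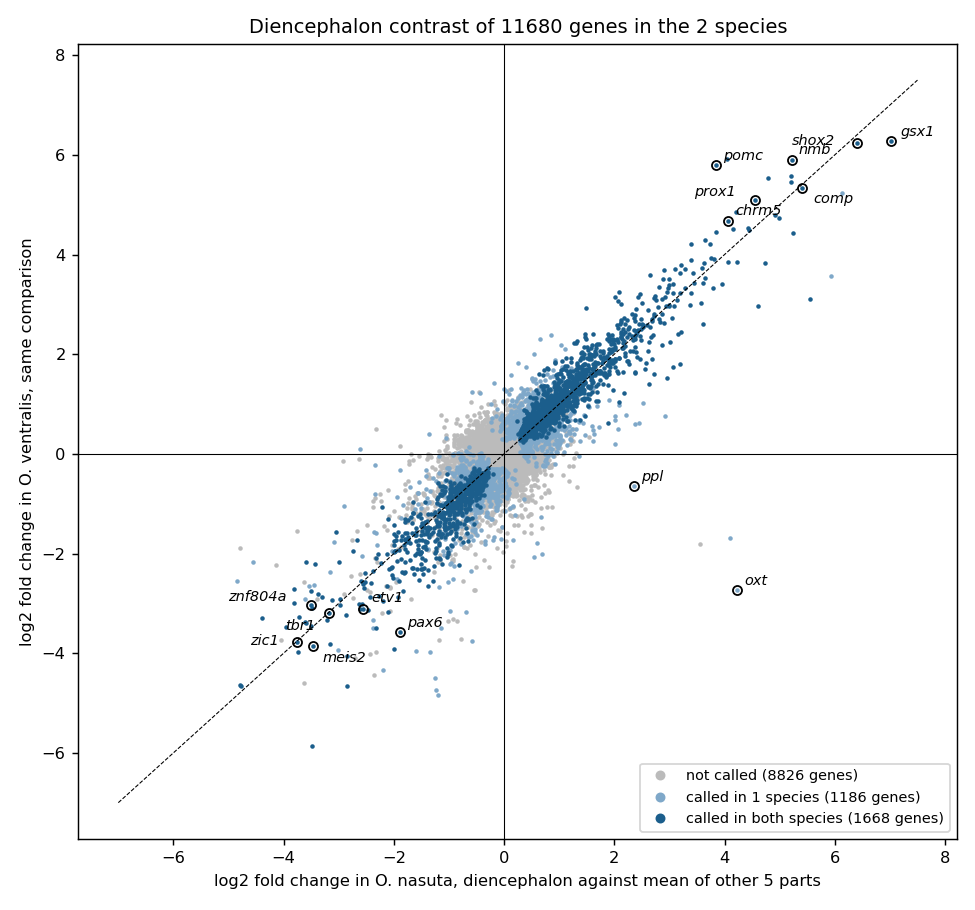
Log2 fold change of the diencephalon against the mean of the other 5 parts in O. nasuta (x axis) and O. ventralis (y axis), with 1 point per tested gene and the line of equality dashed. The 1668 genes called in both species all lie in the lower left and upper right quadrants, and the named genes ppl and oxt lie away from the line.

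A gene can exceed the mean of the other parts without being highest in the diencephalon. Among the 1093 genes that were higher in both species, the diencephalon had the highest mean of the 6 parts for 615 (56.3%) in O. nasuta and 652 (59.7%) in O. ventralis. The telencephalon was highest for 202 (18.5%) and 175 (16%), and the cerebellum for 29 (2.65%) and 34 (3.11%). The mean of the other parts is taken on the log scale, so that a part with few reads of a gene lowers it strongly. Where a part held no read of a gene, which was so for 160 tested genes in O. nasuta and 150 in O. ventralis, the fitted fold change depends on the prior count of the fit (0.125) and is neither a measured ratio nor a bound. None of these genes was called lower, whereas 54 in O. nasuta and 48 in O. ventralis were called higher. Ratios of mean CPM are therefore given as well for several of these genes.

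A stricter test asked whether a gene differed from each of the 5 other parts separately. It was passed upwards by 115 genes in O. nasuta (0.985%), by 166 in O. ventralis (1.42%) and by 95 in both (0.813%), of which 34 carry a gene symbol (0.291%). Downwards it was passed by 26 genes (0.223%), 53 genes (0.454%) and 18 genes in both (0.154%), of which 10 carry a symbol (0.0856%). The genes with the largest changes among the former were gsx1, shox2, comp, nmb, rd3l, prox1, chrm5, bnc2, maneal and ngef, of which gsx1 and nmb passed the filter only with the diencephalon libraries. They encode transcription factors, a matrix protein, a neuropeptide, a receptor and an effector of Eph receptors, among others.

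**Figure D3:**
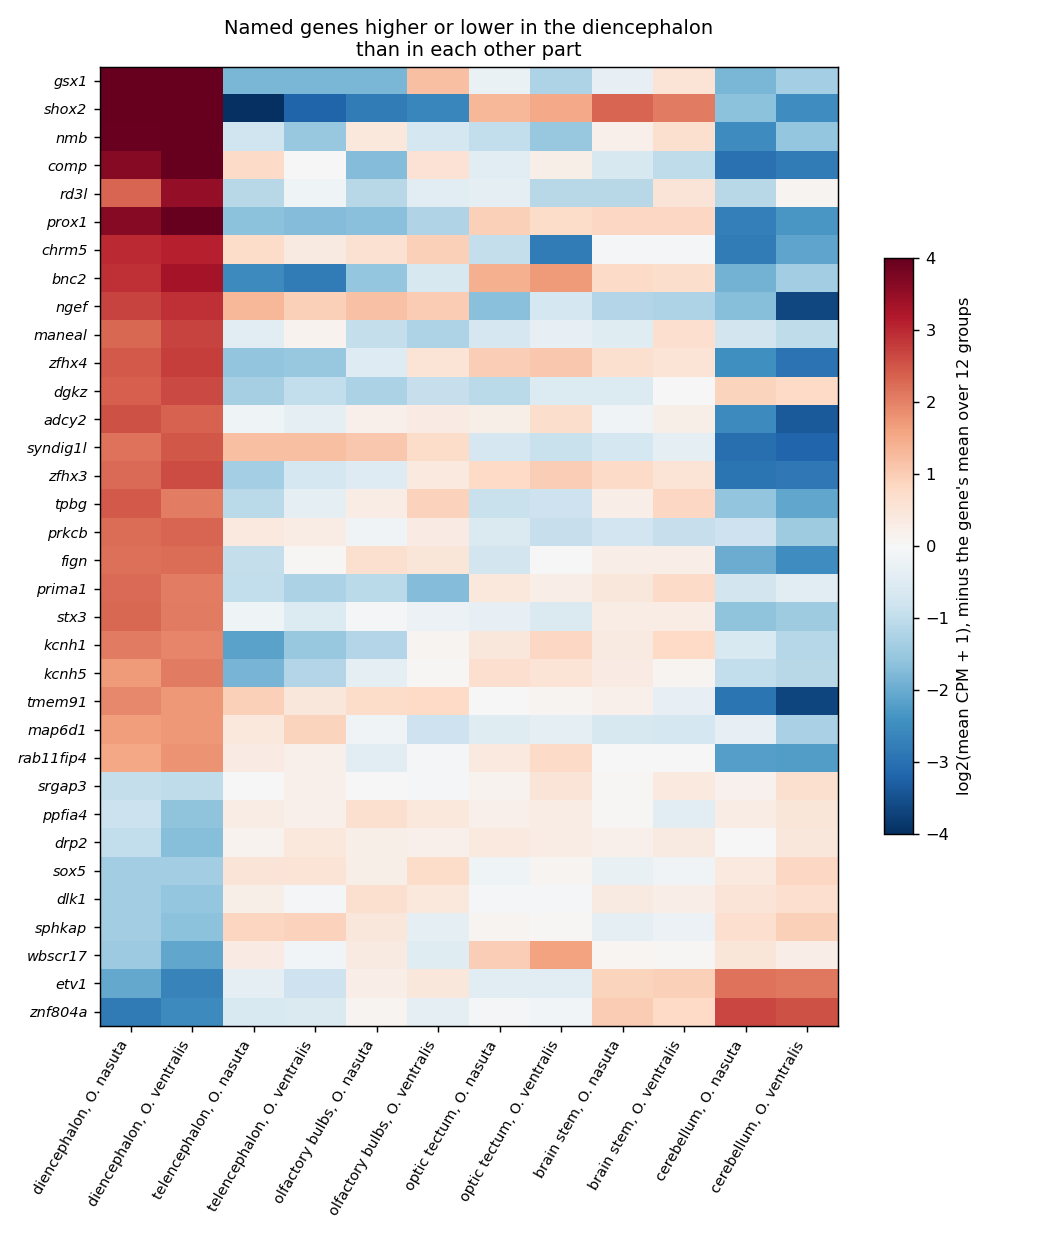
Mean levels of 25 genes that were higher and 9 genes that were lower in the diencephalon than in each other part in both species, over the 12 groups of 2 species and 6 parts, as log2(mean CPM + 1) minus the mean of the gene over the groups. The 2 diencephalon columns hold the highest value of each of the 25 genes. Because the genes were chosen for this difference in the same data, the pattern follows from the choice and is no separate result.

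Transcription factors of the thalamus, pretectum and habenula were the group with the most tested genes and with the most called genes. By share, 57.1% of them were called in O. nasuta and 60.7% in O. ventralis, beside 18.2% and 20.5% of all genes. The cerebellar genes had larger shares, 76.5% and 64.7%, as had the 5 tested pituitary genes, with 80% in each species. In O. ventralis alone, the cyclic nucleotide genes and the receptors of monoamines and acetylcholine had larger shares too, 63.6% each. Of the 46 genes listed, 34 are in the files and 28 were tested. In O. nasuta 11 were higher and 5 lower, and in O. ventralis 12 were higher and 5 lower, with 11 and 5 called in both. Their median log2 fold change was 0.67 in O. nasuta and 0.35 in O. ventralis, beside 0.01 and 0 over all genes tested, but it turned to −0.1 and −0.18 when limma-trend replaced edgeR. A median above 0 is therefore not a stable property of this group, although the 11 genes called higher in both species were 39.3% of its 28, beside 9.36% of all genes tested. In both species, 5 of its members (gsx1, shox2, prox1, zfhx3 and zfhx4) were higher in the diencephalon than in each other part, and gsx1 passed the filter only with the diencephalon libraries.

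The homeobox gene prox1, which is expressed in the thalamus of the mouse and drives neural progenitors out of the cell cycle, had 209, 217, 163, 217 and 282 CPM in the diencephalon of O. nasuta fish 1 to 5 and 324, 342, 375, 342 and 247 CPM in O. ventralis fish 1 to 5. No other library exceeded 42.5 CPM in O. nasuta or 40.5 CPM in O. ventralis, and the log2 fold changes were 4.55 ± 0.18 for O. nasuta and 5.09 ± 0.17 for O. ventralis (adjusted p of 3.52e-37 and 1.63e-42). The zinc finger homeobox genes zfhx3 and zfhx4 were the most abundant members after tcf7l2. zfhx3, which in the mouse acts in the circadian clock of the hypothalamus, had 544, 496, 507, 547 and 763 CPM for O. nasuta and 623, 806, 789, 744 and 670.2 CPM for O. ventralis. All of these values were above those of the other parts, whose highest library had 234 and 339 CPM, and the log2 fold changes were 2.93 ± 0.19 for O. nasuta and 2.97 ± 0.18 for O. ventralis. Its paralogue zfhx4 reached 627 to 883 CPM for O. nasuta and 818 to 965 CPM for O. ventralis, with log2 fold changes of 3.05 ± 0.17 for O. nasuta and 3.23 ± 0.16 for O. ventralis.

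The other higher members were shared with the optic tectum or the brain stem. The GATA factor gene gata3, which with tal2 specifies GABAergic neurons of the midbrain and diencephalon in the mouse, had 52.8 CPM ± 10.03 (SD, n = 5) in the diencephalon of O. nasuta and 32.6 CPM ± 12.1 in O. ventralis, but 222 and 199 CPM in the optic tectum. Its mean over the other 5 parts was 54.6 and 48.9 CPM, that is, as high as or higher than in the diencephalon, whereas the comparison on the log scale gave log2 fold changes of 3.18 ± 0.28 for O. nasuta and 1.80 ± 0.26 for O. ventralis. The LIM homeobox gene lhx5 was highest in the brain stem (52.3 and 56.6 CPM) and second to it in the diencephalon (47.4 and 53.9 CPM). The members that fell in both species were zic1, pax6, rorb, otx1 and lef1, and each of them was highest in the cerebellum or the optic tectum. For zic1 the diencephalon had 23.6 and 29.0 CPM, the cerebellum 3868 and 4567 CPM. The habenular marker pou4f1 was near 0 in the diencephalon (1.41 and 0.536 CPM), and no habenular signal could be read from it.

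Outside the list, the zinc finger gene bnc2 (basonuclin 2) showed the same pattern. It had 411, 363, 359.6, 391 and 493 CPM in O. nasuta fish 1 to 5 and 402, 599, 649, 523 and 493 CPM in O. ventralis fish 1 to 5, while the other libraries ended at 159 and 233 CPM. The 2 ranges did not overlap in either species, and the log2 fold changes were 3.75 ± 0.14 for O. nasuta and 3.93 ± 0.14 for O. ventralis.

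Transcription factors of the hypothalamus and the preoptic area were called in both directions. Of 59 listed genes, 40 are in the files and 23 were tested; 9 were higher and 3 lower in O. nasuta, and 5 were higher and 3 lower in O. ventralis, all of the latter shared with O. nasuta. The higher calls were 39.1% and 21.7% of the 23, beside 11.6% and 12.4% of all genes, and the lower calls 13% in each species, beside 6.53% and 8.11%. Among the higher genes, tbx3 passed the filter only with the diencephalon libraries. The median log2 fold change was −0.29 for O. nasuta and 0.02 for O. ventralis. The genes higher in both species were nkx2-1, tbx3, vax1, six6 and onecut2, and those lower in both were meis2, pbx3 and etv1. nkx2-1, the homeobox gene that specifies the ventral hypothalamus, had 14.2, 20.9, 22.9, 14.5 and 23.2 CPM in O. nasuta fish 1 to 5 and 18.1, 29.3, 28.3, 30.1 and 37.5 CPM in O. ventralis fish 1 to 5. The ratio of its mean to that of the other parts was 2.24 and 3.22, and it was also read in the telencephalon (20.5 CPM ± 3.88 and 14.4 CPM ± 8.69, SD, n = 5), where it marks the subpallium. tbx3, a T-box gene that in the mouse sustains the identity of hypothalamic Pomc neurons, had log2 fold changes of 1.67 ± 0.43 for O. nasuta and 2.18 ± 0.41 for O. ventralis at only 12.8 and 17.9 CPM. The hypothalamic marker otp was higher in the brain stem than in the diencephalon in all 10 fish. It had 15.1 to 23.0 CPM in the brain stem of O. nasuta and 25.2 to 42.3 CPM in that of O. ventralis. In the diencephalon it had 1.61 to 11.4 CPM and 0 to 10.9 CPM, respectively. The summed level of the 40 genes was 390.3 to 709 CPM in the diencephalon of O. nasuta and 399 to 621 CPM in O. ventralis, below all libraries of the other parts, of which the cerebellum came next with 782 to 964 CPM and 792 to 885 CPM.

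Some genes of this region were high in the diencephalon of some fish and low in that of others. The doublesex-related gene dmrta2 had 129, 91.2, 154, 119 and 3.86 CPM in the diencephalon of O. nasuta fish 1 to 5 and 5.18, 17.9, 1.67, 20.2 and 67.2 CPM in the brain stem of the same fish. O. nasuta fish 5 thus had the lowest diencephalon value and the highest brain stem value of its species. The diencephalon values of O. ventralis fish 1 to 5, 48.4, 58.6, 37.0, 17.7 and 28.1 CPM, were less uneven. The brain stem of these fish had 14.7, 31.7, 38.8, 95.1 and 43.4 CPM. It was thus above the diencephalon in O. ventralis fish 3 to 5 as well. The log2 fold changes of dmrta2 were 3.62 ± 0.48 for O. nasuta and 2.61 ± 0.71 for O. ventralis. Since the optic tectum of O. ventralis held no read of it, the value of that species depends on the prior count. The homeobox gene six6, of the eye field, hypothalamus and pituitary, had 6.29, 41.8, 39.2, 24.1 and 1.93 CPM for O. nasuta and 36.3, 9.77, 2.18, 3.55 and 5.36 CPM for O. ventralis. In the diencephalon of O. ventralis it was high in fish 1 alone, and its log2 fold change in that species fell from 2.24 to 1.45 without that fish (adjusted p = 0.433). The brain stem had 1.73, 2.56, 1.67, 20.2 and 24.4 CPM for O. nasuta and 2.10, 7.56, 17.5, 37.0 and 37.6 CPM for O. ventralis. It was above the diencephalon in O. nasuta fish 5 and in O. ventralis fish 3 to 5. The optic tectum of O. ventralis held no read of six6, so that the fold change of that species depends on the prior count.

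The neuropeptide gene oxt, which encodes the fish homologue of oxytocin in preoptic neurons, was found mainly in the brain stem samples and in the olfactory bulbs of O. ventralis fish 3. It had 29.9, 1.90, 163, 4.83 and 0 CPM in the diencephalon of O. nasuta fish 1 to 5 and 3.02, 2.44, 0, 1.77 and 1.34 CPM in that of O. ventralis. In the brain stem the values were 1.73, 580.2, 207, 542 and 486 CPM and 218, 429, 262, 417 and 243 CPM. The olfactory bulbs of O. ventralis fish 1 to 5 had 2.03, 0, 824, 15.4 and 60.1 CPM, with the highest level of all libraries in fish 3. O. nasuta fish 1 was the one fish with less in the brain stem than in the diencephalon. The log2 fold change was 4.22 ± 1.35 in O. nasuta (adjusted p = 0.0438) and had no usable error in O. ventralis, where the gene was not called. Since the telencephalon of O. nasuta held no read of it, the fitted value depends on the prior count, and the ratio of the means had the other direction, with 0.549 in O. nasuta and 0.0170 in O. ventralis. The call in O. nasuta was lost without the fish terms (adjusted p = 0.101) and without O. nasuta fish 3, where it was 2.44. The pallial gene neurod6 likewise had 51.9, 62.7, 75.2, 46.6 and 1.93 CPM in O. nasuta, with fish 5 alone near 0, and 30.2, 17.1, 2.18, 3.55 and 1.34 CPM in O. ventralis, with fish 3 to 5 near 0. Its levels in the telencephalon were 58.3 to 84.5 CPM in O. nasuta and 69.7 to 101.9 CPM in O. ventralis. The hindbrain gene hoxb3 behaved otherwise, with 212, 115, 105, 146 and 122 CPM and 139, 115, 101, 129 and 75.2 CPM in the brain stem and next to no read in the diencephalon of any fish. Whether the limit between the 2 parts lay in the same place in every fish was not tested. These 5 genes, apart from those the lists name, were picked after their values had been seen.

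**Figure D4:**
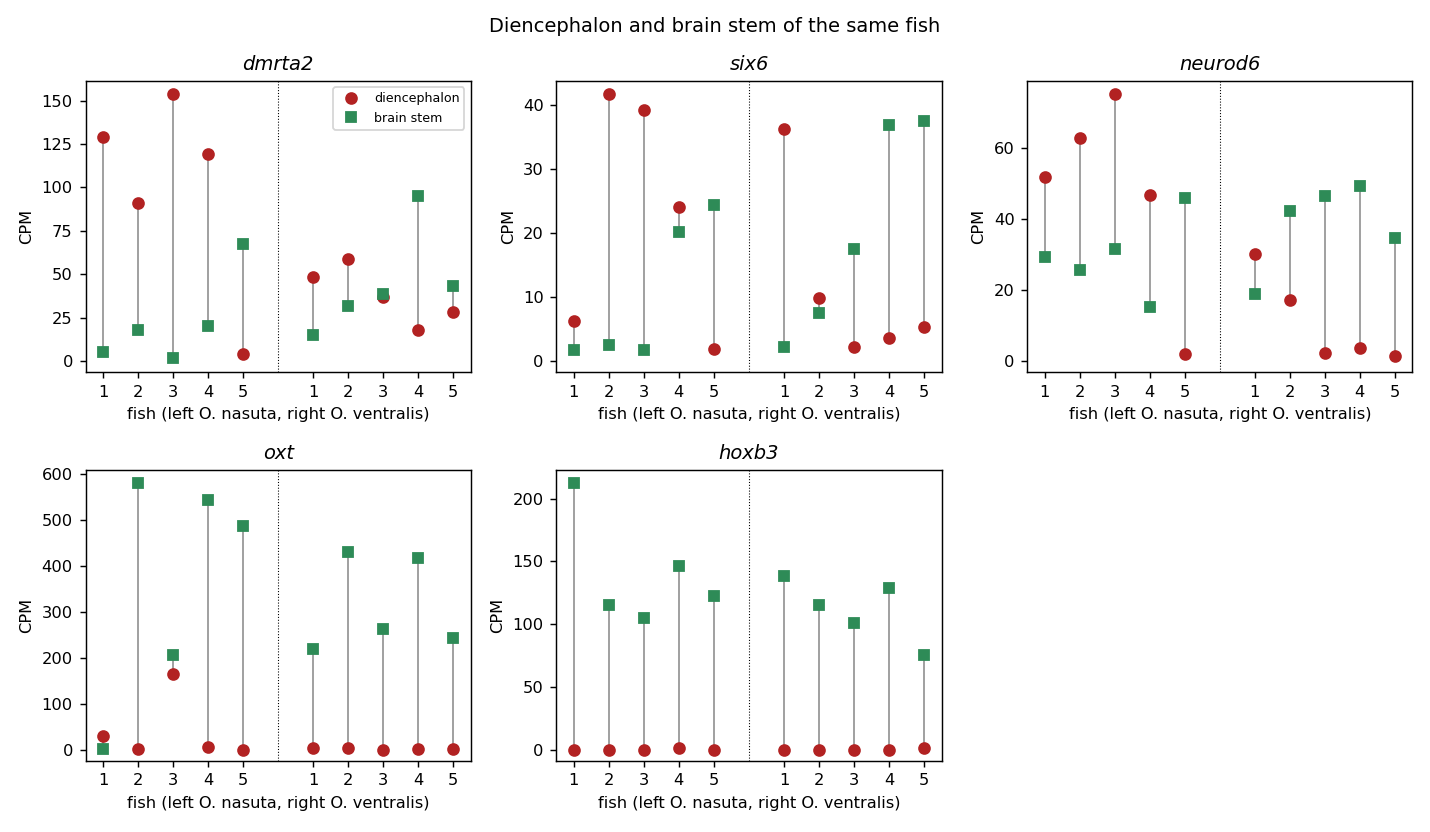
Levels of dmrta2, six6, neurod6, oxt and hoxb3 (CPM) in the diencephalon and brain stem of each of the 10 fish, with the 2 samples of a fish joined by a line. For dmrta2 the diencephalon point of O. nasuta fish 5 (3.86 CPM) lies below its brain stem point (67.2 CPM) while the other O. nasuta fish show the opposite order. In O. ventralis fish 3 to 5 the brain stem point of dmrta2 is the higher one too, and for hoxb3 it is the higher one in all 10 fish.

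Among the neuropeptide precursors, nmb stood apart from the rest. Of 58 listed genes, 30 are in the files and 19 were tested, with 7 higher and 2 lower in O. nasuta, 5 higher and 2 lower in O. ventralis, and 5 and 2 called in both. The higher calls were 36.8% and 26.3% of the 19, beside 11.6% and 12.4% of all genes, and nmb and pomc passed the filter only with the diencephalon libraries. The median log2 fold change was 0.06 for O. nasuta and −0.46 for O. ventralis. nmb, the precursor of neuromedin B, a bombesin-like peptide, had 69.2, 72.2, 49.0, 80.4 and 168 CPM in O. nasuta fish 1 to 5 and 112, 78.2, 137, 163 and 96.5 CPM in O. ventralis fish 1 to 5. The other parts did not exceed 19.8 and 11.6 CPM, so that the groups did not overlap. The mean in the diencephalon was 26.7 times that of the other parts in O. nasuta and 44.1 times in O. ventralis (log2 fold changes of 5.22 ± 0.34 for O. nasuta and 5.90 ± 0.32 for O. ventralis). The gene of its receptor, nmbr, moved the other way, at 5.39 and 3.29 CPM in the diencephalon against 22.9 and 35.4 CPM in the olfactory bulbs (log2 fold changes of −1.49 ± 0.45 for O. nasuta and −2.30 ± 0.49 for O. ventralis).

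The other peptides called higher in both species were pomc, vip, cck and tac1, but the call of pomc in O. nasuta was lost with limma-trend (0.78, adjusted p = 0.285) and DESeq2 gave no adjusted p for it. The precursor of vasoactive intestinal peptide, vip, had log2 fold changes of 2.57 ± 0.58 for O. nasuta and 1.82 ± 0.51 for O. ventralis at 9.58 and 11.4 CPM, and the brain stem or the olfactory bulbs were higher. cck, of cholecystokinin, had 162 CPM ± 45.7 (SD, n = 5) for O. nasuta and 207 CPM ± 50.1 for O. ventralis, far below the 813 and 985 CPM of the telencephalon. Its call depended on the cerebellum, where it was at 0 and 1.98 CPM: without the cerebellum libraries the log2 fold change of O. nasuta turned from 1.82 to −0.10, and the ratio of the means was below 1 in both species (0.596 and 0.769). gal, of galanin, was called in O. nasuta only, with 3.15, 24.7, 26.2, 22.5 and 0 CPM against 39.3, 7.33, 4.36, 3.55 and 5.36 CPM in O. ventralis, where fish 1 was far above the others. The brain stem had 8.33 to 24.4 CPM of gal in O. nasuta and 8.40 to 23.1 CPM in O. ventralis. The olfactory bulbs of O. ventralis fish 3 to 5 had 246.5, 112 and 128 CPM.

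The precursor of corticotropin-releasing hormone, crh, and the gene of its binding protein, crhbp, fell in both species. crh had 3.15, 3.80, 3.27, 3.22 and 0 CPM in O. nasuta fish 1 to 5 and 3.02, 4.89, 4.36, 3.55 and 0 CPM in O. ventralis fish 1 to 5, and crhbp 1.57, 5.70, 3.27, 6.43 and 0 CPM and 6.05, 4.89, 0, 3.55 and 5.36 CPM. Both genes were thus near the limit of detection in a sample that included the hypothalamus, and both were highest in the telencephalon or the olfactory bulbs (40.1 and 39.1 CPM for crh in the olfactory bulbs of O. nasuta and the telencephalon of O. ventralis). The log2 fold changes were −2.56 ± 0.64 for O. nasuta and −2.60 ± 0.63 for O. ventralis for crh and −2.54 ± 0.63 for O. nasuta and −2.70 ± 0.61 for O. ventralis for crhbp.

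Pituitary hormones were scarce. Of 25 listed pituitary genes, 12 are in the files and 5 were tested, with 2 higher in both species, pomc among them, and dlk1 lower. The 2 are 40% of the 5, beside 9.36% of all genes, and pomc passed the filter only with the diencephalon libraries. The glycoprotein hormone subunit gene cga was not tested for low counts. It had 19 reads in the diencephalon of O. ventralis, none in that of O. nasuta and 2 reads in the 49 libraries of the other parts. fshb had 27 reads in the diencephalon against 86 in those 49 libraries, that is 5.04 against 3.27 CPM by summed reads. The summed level of the 12 genes was 58.0 to 254.7 CPM in the diencephalon of O. nasuta and 76.2 to 247 CPM in O. ventralis, beside 188 to 232 CPM and 214 to 262 CPM in the brain stem and similar sums in the olfactory bulbs (139.8 to 332 CPM and 199 to 324 CPM). How much pituitary tissue each sample held was not tested.

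The machinery of peptide secretion was called in both directions. All 16 listed genes that are in the files were tested, with 6 higher and 2 lower in O. nasuta and 5 higher and 2 lower in O. ventralis. These are 50% and 43.8% of the 16, beside 18.2% and 20.5% of all genes, and the median log2 fold change was 0.18 and 0.17. chga, of chromogranin A, the core protein of dense-core vesicles, had 1792, 1262, 1860.3, 1650.2 and 2075 CPM for O. nasuta and 856, 1415, 1499, 1308 and 1915 CPM for O. ventralis. Its log2 fold changes were 1.07 ± 0.16 for O. nasuta and 1.23 ± 0.16 for O. ventralis, but the telencephalon was higher (2141 and 1494 CPM). The related scg3, of secretogranin III, was highest in the diencephalon and rose by 0.69 ± 0.13 for O. nasuta and 1.08 ± 0.13 for O. ventralis on the log2 scale. baiap3, which acts in dense-core vesicle traffic, had log2 fold changes of 0.71 ± 0.24 for O. nasuta and 1.30 ± 0.23 for O. ventralis. cadps, which primes such vesicles for release, and the convertase gene pcsk5 fell, by 0.71 ± 0.11 for O. nasuta and 0.77 ± 0.11 for O. ventralis and 1.39 ± 0.25 for O. nasuta and 1.57 ± 0.24 for O. ventralis on the log2 scale.

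Of 11 tested receptors of monoamines and acetylcholine (44 listed), chrm5 alone was higher in the diencephalon than in each other part of both species. Against the mean of the other parts 3 were higher and 1 lower in O. nasuta, and 5 were higher and 2 lower in O. ventralis. The higher calls were 27.3% and 45.5% of the 11, beside 11.6% and 12.4% of all genes. The lower calls were 9.09% and 18.2%, beside 6.53% and 8.11%. chrm5, the muscarinic receptor M5, had 51.9, 51.3, 45.8, 37.0 and 83.1 CPM in O. nasuta fish 1 to 5 and 51.4, 58.6, 63.2, 65.6 and 55.0 CPM in O. ventralis fish 1 to 5. All were above the other parts, which ended at 19.6 and 30.4 CPM, and the ratio of the means was 9.57 and 11.1 (log2 fold changes of 4.07 ± 0.33 for O. nasuta and 4.68 ± 0.34 for O. ventralis). htr1f, a serotonin receptor that lowers cyclic AMP, had 49.4 to 88.9 CPM (median of 72.4) in O. nasuta and 37.2 to 90.7 CPM (median of 68.4) in O. ventralis, with log2 fold changes of 2.40 ± 0.31 for O. nasuta and 2.46 ± 0.32 for O. ventralis. The α-adrenergic receptor gene adra1b rose by 1.34 ± 0.18 for O. nasuta and 1.55 ± 0.17 for O. ventralis, whereas the β-adrenergic receptor gene adrb1 fell by 2.41 ± 0.38 for O. nasuta and 2.59 ± 0.41 for O. ventralis, its cerebellar level being 812 and 784 CPM. Of 10 tested neuropeptide receptors of 63 listed, 1 was lower in both species (10%, beside 6.53% and 8.11% of all genes). In O. nasuta 3 (30%) were higher (oprd1, calcr and trhr) and in O. ventralis 1 (10%, calcrl), beside 11.6% and 12.4% of all genes, but none in both. That these differed between the species was not shown, since none of them was among the genes with a tested difference in the fit with all fish, while calcr was among the 26 found without O. nasuta fish 5.

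Genes that make and break cyclic nucleotides were called in both directions. Of 44 listed genes 27 are in the files and 22 were tested, with 7 higher and 5 lower in both species, and medians of 0.26 and −0.13. The higher calls were 31.8% of the 22 in O. nasuta and 36.4% in O. ventralis, beside 11.6% and 12.4% of all genes. The lower calls were 22.7% and 27.3%, beside 6.53% and 8.11%. adcy2, an adenylyl cyclase stimulated through protein kinase C and Gβγ, was higher in the diencephalon than in each other part. It had 153, 165, 147, 149.6 and 164 CPM in O. nasuta fish 1 to 5 and 175, 115, 144, 144 and 106 CPM in O. ventralis fish 1 to 5, with at most 55.0 and 54.6 CPM elsewhere. The groups did not overlap, and the log2 fold changes were 3.07 ± 0.17 for O. nasuta and 2.96 ± 0.18 for O. ventralis (adjusted p of 1.42e-27 and 5.49e-25). adcy7 rose as well, by 1.75 ± 0.21 for O. nasuta and 1.93 ± 0.21 for O. ventralis, while adcy8, which calcium stimulates, fell by 1.52 ± 0.22 for O. nasuta and 2.01 ± 0.24 for O. ventralis. Of the phosphodiesterases, pde2a, which cyclic GMP activates, reached 914, 753, 719, 803 and 1059 CPM for O. nasuta and 949, 994, 1105, 1094 and 859 CPM for O. ventralis. Its log2 fold changes were 2.36 ± 0.10 for O. nasuta and 2.49 ± 0.10 for O. ventralis, those of pde5a, which hydrolyses cyclic GMP, 1.12 ± 0.29 for O. nasuta and 1.31 ± 0.28 for O. ventralis, and those of pde7b, which hydrolyses cyclic AMP, −0.95 ± 0.18 for O. nasuta and −1.15 ± 0.18 for O. ventralis. nos1, the neuronal nitric oxide synthase, whose product raises cyclic GMP, had 91.2 to 135 CPM for O. nasuta and 90.7 to 137 CPM for O. ventralis, with log2 fold changes of 1.97 ± 0.17 for O. nasuta and 2.39 ± 0.18 for O. ventralis.

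Some genes outside the lists were named because their changes were large. prkcb, of protein kinase C β, had 801, 675, 628, 627 and 866 CPM for O. nasuta and 596, 767, 965, 847 and 705 CPM for O. ventralis, all above the 232 and 426 CPM of the highest other library. dgkz, of the diacylglycerol kinase ζ, which removes the lipid that activates protein kinase C, had 206, 127, 131, 149.6 and 176 CPM and 224, 147, 194, 204 and 174 CPM. Both genes were higher in all 10 diencephalon libraries than in any other library of their species, with log2 fold changes of 2.61 ± 0.20 for O. nasuta and 2.88 ± 0.20 for O. ventralis for prkcb and 3.14 ± 0.16 for O. nasuta and 3.09 ± 0.15 for O. ventralis for dgkz. rin1, of a Ras and Rab5 regulator known from the mouse forebrain, had 1892 CPM ± 516 (SD, n = 5) for O. nasuta and 2207 CPM ± 537 for O. ventralis beside 1171 and 1123 CPM in the telencephalon, and it did not pass the test against each other part (FDR of 0.870 and 0.0746). The potassium channel genes kcnh1 and kcnh5 rose by 2.86 ± 0.22 for O. nasuta and 2.18 ± 0.22 for O. ventralis and by 2.20 ± 0.18 for O. nasuta and 2.44 ± 0.17 for O. ventralis, and both were above each other part.

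Ephrins and Eph receptors were called in 1 direction. Of the 10 ephrins and Eph receptors tested (22 listed), 5 were higher in each species, 4 of them in both (epha3, epha6, epha7 and ephb3), and none was lower. The higher calls were 50% of the 10 in each species and 40% in both, beside 11.6%, 12.4% and 9.36% of all genes, and the median log2 fold change was 0.7 in O. nasuta and 0.66 in O. ventralis. epha6 had 203, 118, 183, 146 and 155 CPM for O. nasuta and 127, 225, 185, 179 and 137 CPM for O. ventralis, with log2 fold changes of 1.63 ± 0.23 for O. nasuta and 1.74 ± 0.22 for O. ventralis. For epha7 the log2 fold changes were 1.2 ± 0.17 for O. nasuta and 1.59 ± 0.17 for O. ventralis. Both receptors were highest in the diencephalon, whereas epha3 and ephb3 were highest in the optic tectum. ngef, the gene of ephexin, which acts downstream of Eph receptors of class A, was above each other part, with 92.8, 58.9, 49.0, 78.8 and 122 CPM for O. nasuta and 142, 63.5, 67.5, 106 and 85.8 CPM for O. ventralis. Single libraries of other parts reached 55.9 and 60.9 CPM, so that the lowest diencephalon library overlapped in O. nasuta but not in O. ventralis. sema3a, a repulsive guidance cue, rose by 3.38 ± 0.23 for O. nasuta and 2.99 ± 0.26 for O. ventralis. comp, a matrix protein of the thrombospondin family, had 86.5, 77.9, 88.3, 96.5 and 145 CPM in O. nasuta fish 1 to 5 and 124, 195, 153, 145 and 213 CPM in O. ventralis fish 1 to 5. Its other libraries stayed at or below 20.8 and 33.6 CPM, and the ratio of the means was 21.6 and 28.5.

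**Figure D5:**
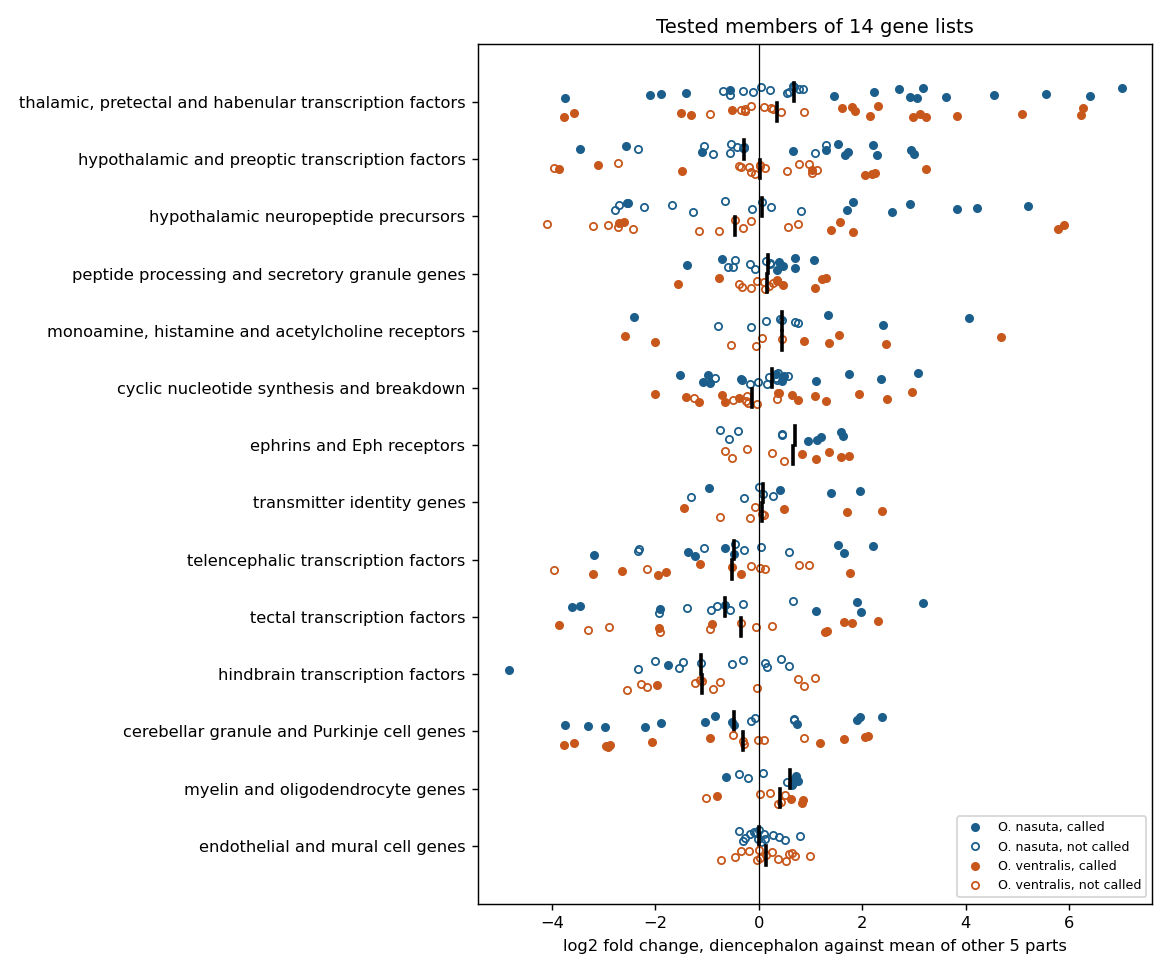
Log2 fold change of the tested members of 14 gene lists (points) in O. nasuta and O. ventralis, with the median of each list as a bar and 0 as a line. The points of most lists fall on both sides of 0, those of the ephrins and Eph receptors that were called lie above it, and the hindbrain list has its medians of −1.12 and −1.1 below it.

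Of 9 tested transmitter identity genes, slc17a6, gad2 and nos1 were higher and gad1 lower in both species. The higher calls were 33.3% of the 9 in each species, beside 11.6% and 12.4% of all genes. The lower calls were 11.1%, beside 6.53% and 8.11%. slc17a6, of the vesicular glutamate transporter VGLUT2, had 958, 650.2, 1000.5, 942 and 744 CPM for O. nasuta and 717, 924, 667, 639.9 and 946 CPM for O. ventralis, with log2 fold changes of 1.40 ± 0.18 for O. nasuta and 1.71 ± 0.18 for O. ventralis, although the telencephalon was higher (1021 and 957 CPM). The 2 enzymes of GABA synthesis moved in opposite directions. gad2 rose by 0.41 ± 0.13 for O. nasuta and 0.49 ± 0.12 for O. ventralis, a call that was lost in both species without the cerebellum libraries, and gad1 fell by 0.96 ± 0.31 for O. nasuta and 1.46 ± 0.32 for O. ventralis, while the vesicular GABA transporter gene slc32a1 did not pass the test in either species (0.08 and 0.06).

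Among 10 tested genes of monoamine synthesis and transport (24 listed), 3 were higher in O. nasuta, 2 in O. ventralis and none lower. The higher calls were 30% and 20% of the 10, beside 11.6% and 12.4% of all genes, and pnmt passed the filter only with the diencephalon libraries. pnmt, of the enzyme that makes adrenaline, had 12.6, 15.2, 9.81, 3.22 and 17.4 CPM in O. nasuta fish 1 to 5 and 18.1, 14.7, 19.6, 15.95 and 22.8 CPM in O. ventralis fish 1 to 5. The rest of the brain held little of it, as 2 parts of each species had no read at all, and the ratio of the means was 9.60 and 10.9. tph1, of an enzyme that starts serotonin synthesis, rose by 2.01 ± 0.59 for O. nasuta and 3.15 ± 0.57 for O. ventralis at 6.99 and 10.7 CPM. The dopamine enzyme gene th was at 3.75 and 0.959 CPM and was not called. Receptors and enzymes of steroid and thyroid hormones gave no gene that was higher in both species. Of 14 tested (35 listed), nr3c2, rara and rarg fell in both, and rxra rose in O. ventralis. The medians were −0.46 and −0.48. The lower calls were 21.4% of the 14 in each species, beside 6.53% and 8.11% of all genes. nr3c2, the mineralocorticoid receptor gene, had log2 fold changes of −0.54 ± 0.15 for O. nasuta and −0.61 ± 0.15 for O. ventralis, and the retinoic acid receptor genes rara and rarg −0.67 ± 0.19 for O. nasuta and −1.28 ± 0.21 for O. ventralis and −0.91 ± 0.22 for O. nasuta and −1.44 ± 0.23 for O. ventralis, respectively.

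Most of the 15 genes with the largest fall were highest in the cerebellum (znf804a, zic1, zic2, zic5, fat2, hepacam2, plekhg1, ccnf, smpx and etv1), and the others in the olfactory bulbs, the telencephalon or the optic tectum (crh, crhbp, sulf1, tbr1 and meis2). Besides zic1, the zinc finger genes zic2 and zic5 were lower in both species, by 3.31 ± 0.39 for O. nasuta and 2.88 ± 0.38 for O. ventralis for zic2 and 2.97 ± 0.50 for O. nasuta and 2.91 ± 0.46 for O. ventralis for zic5 on the log2 scale. fat2, an atypical cadherin of cerebellar granule cells, had 2.04 and 4.62 CPM in the diencephalon and 567 and 522 CPM in the cerebellum. The homeobox gene meis2 was different, as it was low in the diencephalon and high in several parts. It had 12.6, 24.7, 49.0, 14.5 and 15.5 CPM in O. nasuta fish 1 to 5 and 9.07, 24.4, 26.1, 23.0 and 9.38 CPM in O. ventralis fish 1 to 5, against 535 and 632 CPM in the optic tectum and 514 and 790.4 CPM in the olfactory bulbs, but 24.5 and 23.6 CPM in the cerebellum.

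Among the 10 genes with a symbol that were lower in the diencephalon than in each other part of both species were znf804a, etv1, wbscr17, dlk1, sphkap, sox5, ppfia4, drp2 and srgap3. znf804a, a zinc finger gene, had 40.9, 20.9, 42.5, 29.0 and 7.73 CPM in O. nasuta fish 1 to 5 and 24.2, 36.6, 47.9, 35.5 and 29.5 CPM in O. ventralis fish 1 to 5. No library of another part was below 116 or 80.05 CPM, so that the groups did not overlap, and the log2 fold changes were −3.50 ± 0.29 for O. nasuta and −3.03 ± 0.28 for O. ventralis (adjusted p of 7.63e-14 and 2.22e-12). etv1, an ETS factor of granule cells and olfactory interneurons in the mouse, had 44.04, 38.0, 36.0, 29.0 and 15.5 CPM for O. nasuta and 27.2, 12.2, 15.3, 17.7 and 32.2 CPM for O. ventralis. Its lowest other library had 79.7 CPM for O. nasuta and 30.4 CPM for O. ventralis, the latter within the range of the diencephalon. dlk1, a Notch ligand relative that is prominent in the mammalian pituitary, had 18.9, 47.5, 39.2, 43.4 and 27.1 CPM for O. nasuta and 39.3, 22.0, 37.0, 17.7 and 41.5 CPM for O. ventralis, below all other libraries, the lowest of which had 76.4 and 60.7 CPM. sox5, a SOX factor of neuronal fate, fell by 1.56 ± 0.22 for O. nasuta and 1.83 ± 0.22 for O. ventralis, and srgap3, a brake on Rac downstream of Slit and Robo, by 1.08 ± 0.15 for O. nasuta and 1.37 ± 0.15 for O. ventralis.

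The lists of the other brain parts all had medians below 0, but their calls went in both directions except for the hindbrain. Of 13 tested hindbrain factors none was higher, and the medians were −1.12 and −1.1. The lower calls were 15.4% of the 13 in O. nasuta and 7.69% in O. ventralis, beside 6.53% and 8.11% of all genes. Only mafb fell in both species, by 1.75 ± 0.36 for O. nasuta and 1.97 ± 0.38 for O. ventralis. Of the 23 hindbrain genes in the files, 11 had no read in the diencephalon of O. nasuta and 10 in that of O. ventralis. This was not particular to the diencephalon, as the olfactory bulbs had 15 and 14 such genes and the telencephalon 12 and 14. The optic tectum and the cerebellum each had 10 and 13, and the brain stem 7 and 6. No library used held a read of 5 of the 23. Of 15 telencephalic factors 5 fell in O. nasuta (33.3%) and 7 in O. ventralis (46.7%), 5 of them in both, with neurod2 at −1.38 ± 0.32 for O. nasuta and −2.66 ± 0.39 for O. ventralis and zbtb18 at −1.23 ± 0.27 for O. nasuta and −1.95 ± 0.29 for O. ventralis. Of the same 15, 3 rose in O. nasuta (20%) and 1 in O. ventralis (6.67%). nr2e1 rose in both (1.66 ± 0.28 for O. nasuta and 1.76 ± 0.31 for O. ventralis). Of 17 cerebellar genes 9 (52.9%) and 7 (41.2%) fell and 4 (23.5%) rose in each species. The exceptions that rose were cbln1, calb2, pcp4 and en2, and cbln1, a synapse organiser that granule cells secrete in the mouse, was highest in the diencephalon (69.6 and 65.5 CPM). Of 15 tectal factors 4 were higher (26.7%) and 4 lower (26.7%) in O. nasuta and 5 higher (33.3%) and 3 lower (20%) in O. ventralis. Over all genes tested, 11.6% and 12.4% were higher and 6.53% and 8.11% lower. The 4 that rose in both species (gata3, tfap2a, tfap2b and en2) were all highest in the optic tectum.

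Glial, vascular and blood genes moved with the diencephalon only in part. slc1a2, the glial glutamate transporter gene, had 3116, 2717, 2501, 2719.7 and 3405 CPM in O. nasuta fish 1 to 5 and 3202, 2854, 2924, 3104 and 2874 CPM in O. ventralis fish 1 to 5, above all other libraries (2168 and 2678 CPM at most), with log2 fold changes of 0.98 ± 0.10 for O. nasuta and 1.06 ± 0.10 for O. ventralis. gfap, the filament gene of radial glia, fell by 1.44 ± 0.18 for O. nasuta and 1.74 ± 0.20 for O. ventralis, and the optic tectum had 449 and 418 CPM of it. Of the 7 tested genes of radial glia, astroglia and tanycytes, 2 were higher in O. nasuta (28.6%) and 3 in O. ventralis (42.9%). In each species 1 was lower (14.3%), and the median log2 fold change was 0.58 for O. nasuta and 0.49 for O. ventralis. Over all genes, 11.6% and 12.4% were higher and 6.53% and 8.11% lower. Of 10 myelin genes, mpz and myrf rose and mag fell in both species, and the summed level of the 13 in the files was 949 to 1209.7 CPM in the diencephalon of O. nasuta and 974 to 1179 CPM in O. ventralis, less than the 2221 to 2844 and 2693 to 3771 CPM of the brain stem. The higher calls were 40% of the 10 in O. nasuta and 30% in O. ventralis, beside 11.6% and 12.4% of all genes. The lower calls were 10% in each species, beside 6.53% and 8.11%. None of 15 endothelial and mural, 4 microglial and 4 red blood cell genes tested was called in either species, beside 18.2% and 20.5% of all genes. Of the 7 meningeal genes bgn alone fell in O. nasuta (14.3%), and of the 3 muscle genes mylpf alone did (33.3%), beside 6.53% of all genes. None of either list was called in O. ventralis, and single genes of such short lists say little about these cells. The summed muscle levels were 0 to 9.81 CPM for O. nasuta and 4.36 to 33.3 CPM for O. ventralis. The part of these cells in the results above was not tested.

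The diencephalon comparison differed between the species for 3 genes of 11680 (0.0257%), while 684 genes (5.86%) had an unadjusted p under 0.05. ppl, of the cell envelope protein periplakin, had 73.9, 70.3, 91.5, 85.2 and 94.7 CPM in the diencephalon of O. nasuta fish 1 to 5 and 0, 0, 17.4, 1.77 and 4.02 CPM in that of O. ventralis fish 1 to 5, without overlap. Its log2 fold changes were 2.35 ± 0.21 for O. nasuta and −0.65 ± 0.47 for O. ventralis, and the difference was 3.0 ± 0.48 (FDR of 2.90e-04). The locus LOC100690287, for which no gene name was used here, had 29.9, 36.1, 52.3, 38.6 and 36.7 CPM for O. nasuta and 127, 97.7, 89.3, 119 and 103.2 CPM for O. ventralis. The values again did not overlap, and the difference was −1.61 ± 0.28 (FDR of 0.00101). bhlhe41, a transcriptional repressor of the circadian clock, had 99.1, 87.4, 71.9, 67.6 and 71.5 CPM for O. nasuta and 72.6, 73.3, 137, 79.8 and 95.2 CPM for O. ventralis. These values overlapped, and the species were farther apart in the mean of the other parts (84.3 CPM for O. nasuta and 43.8 CPM for O. ventralis). The difference of −1.30 ± 0.25 (FDR of 0.00503) did not pass without O. nasuta fish 1, without O. ventralis fish 3, without the fish terms or with limma-trend. The number of such genes rose to 26 without O. nasuta fish 5, the fish with the low dmrta2 and neurod6 values, and to 5 without O. ventralis fish 1 or 2. That the other genes did not differ between the species was not shown, as a missed threshold does not show equality.

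Some of the calls named above were lost when a single fish was left out. Of those in O. nasuta, oxt was lost without O. nasuta fish 1, 3 or 4 or O. ventralis fish 1, 2, 4 or 5 (log2 fold changes of 2.44 to 4.91), and gal without O. nasuta fish 1, 3 or 4 or O. ventralis fish 4 or 5 (2.59 to 2.94). oprd1 was lost without any O. nasuta fish or O. ventralis fish 2 or 5 (1.57 to 1.77), trhr without O. nasuta fish 1, 2 or 3 (0.80 to 1.11) and baiap3 without O. nasuta fish 2, 3 or 4 or O. ventralis fish 3 or 4 (0.49 to 0.71). gad1 was lost without O. nasuta fish 1, 3 or 5 or O. ventralis fish 3 (−0.98 to −0.83), gad2 without O. nasuta fish 2, 3 or 5 (0.37 to 0.38), nmbr without fish 1 or 5 (−1.53 and −1.11), tph1 without fish 1 or 2 (1.91 and 1.66) and myrf without fish 1, 3 or 4 (0.63 to 0.78). A single O. nasuta fish decided tbx3 (fish 2, 1.36 without it), pde5a (fish 2, 0.94) and mylpf (fish 5, −2.73), and tbr1 was lost without fish 1 or 5 (−3.42 and −2.90). Of the calls in O. ventralis, six6 was lost without O. ventralis fish 1, 2 or 3 or O. nasuta fish 1 or 4 (1.45 to 2.43), rxra without fish 1, 2 or 4 (0.49 to 0.58), myrf without fish 2 or 5 (0.75 and 0.69), neurod6 without fish 4 or 5 (−1.51 and −1.31), dmrta2 without fish 2 (2.34), nr3c2 without fish 5 (−0.50) and tbr1 without fish 5 (−2.60). The tectal marker pax7 was lost in both species without most single fish (−1.82 to −1.56), and rd3l fell below the filter without O. ventralis fish 1, 2, 4 or 5. The other calls whose log2 fold changes are given above passed the test in every such fit in which the gene passed the filter.

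Many listed genes had too few reads for a test. By summed reads, 3 of the 6 such thalamic, pretectal and habenular factors were higher in the diencephalon and 3 lower, 9 of the 17 hypothalamic and preoptic factors were higher and 6 lower, and 6 of the 11 neuropeptide precursors were higher and 5 lower. Single genes are given here as examples of both directions. nkx2-4, a homeobox gene of the hypothalamus, had 25 reads in the 10 diencephalon libraries, at least 1 in each, and 2 reads in the other 49 libraries. kiss2, of a kisspeptin of the fish hypothalamus, had 15 reads against 6, ghrh, of growth hormone-releasing hormone, 39 against 31, and hmx2, of hypothalamic patterning, 20 against 16. For these 4 genes the summed reads gave a higher level in the diencephalon than elsewhere (4.67 against 0.076 CPM for nkx2-4 and 7.28 against 1.18 CPM for ghrh). hcrt, of hypocretin, had 7 reads against 16 and hdc, of the histamine enzyme, 2 against 2, so that their distribution could not be told at this depth. In the other direction, gbx2, a thalamic factor of the mouse, had 1 read in the diencephalon against 86 elsewhere (0.187 against 3.27 CPM), olig3, of thalamic progenitors, 1 against 34, and spx, of the peptide spexin, 1 against 61.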

How the data were processed

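The 60 libraries of 6 brain parts from 10 females were made with a 3′ RNA sequencing kit and read from a single end. The authors trimmed the reads (first 10 bases and polyA stretches off, reads over 20 bases kept), mapped them to the O. niloticus genome with STAR 2.5.2b and counted them per gene with HTSeq-count 0.6.1p1 by strand, at a mapping quality of at least 10 and without reads that overlap more than 1 feature. The deposited values are counts of reads per gene for 36499 genes, without normalization, and 5 summary lines that name no gene were left out. Reads of a 3′ end that maps to near-identical copies of a gene are lost in this counting, and the reads of both species were mapped to the genome of another fish species. The files hold no molecular identifiers, so that detection limits cover counting error only.

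R 4.3.3, edgeR 4.0.16, limma 3.58.1 and DESeq2 1.42.0 were used. The 59 libraries held 137128 to 1531632 counts. Genes over 15 CPM in at least 4 libraries were fitted with TMM scaling and terms for each fish and each part within a species (quasi-likelihood fit, robust, legacy = TRUE). Diencephalon against the mean of the other 5 parts was called stage-wise: a joint test over 12 contrasts at 5% FDR, which 8940 genes passed (76.5%), then Holm's method within a gene. glmTreat served for changes larger than 2 on the log2 scale, the largest of 5 p-values (Benjamini-Hochberg) for each other part, and the difference of the contrasts for the species difference. All tests are two-sided. The SE is the one that the F-statistic implies. Libraries of different parts with the same species and number come from the same fish, per the labels and the study's methods; the mean correlation of residuals of the diencephalon with other parts was 0.0599 within a fish and −0.015 between fish. In simulated O. nasuta diencephalon counts over 11001 genes, 54% of 100 changes of log2 1 were recovered. Of 100 changes of log2 2, 94% were recovered, with 0 false calls. Few of the 11001 genes carried a change in that setting, whereas 76.5% of the measured genes passed the joint test. Whether these rates hold for the measured counts and their cut-off was not tested.

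The comparison, the 26 gene lists and the rule for named genes were chosen with earlier results of these data known. Named were the 4 markers, the 20 higher and 15 lower genes with a symbol whose smaller change of the species was largest, up to 25 genes each way that differed from each part in both species, no more than 6 called genes of a list, and those that differed between species. The genes added after their values were seen are dmrta2, neurod6, gal, oxt, otp, hoxb3, pax7, tbr1, zic2 and rin1, and single list members beyond this rule are named to complete a count. Some items are not reported here. The 5267 tested genes with a locus name only (45.1%) were counted and not named, with 1 exception. The alternatives were DESeq2 size factors, no filter, filterByExpr, no fish terms, DESeq2 as the test, adjustment per contrast, all 60 libraries, each fish left out, the cerebellum or the olfactory bulbs left out, and the current edgeR fit. limma-trend (prior count 2) was added after the data had been seen.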

Additional observations from a re-analysis of the deposited data

Results flagged for a closer look

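The difference between the diencephalon and the other parts differed between the species by a test of that difference for ppl (3.0 on the log2 scale, a larger contrast in O. nasuta), LOC100690287 (−1.61, a larger contrast in O. ventralis) and bhlhe41 (−1.30, a larger contrast in O. ventralis, where the other parts were lower).

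Among 235 groups of 5 diencephalon values of the named genes, 16 held a library far from the other 4 by Dixon's criterion (0.71), where chance gives about 1 in 20. In O. nasuta fish 5, comp (145 CPM, next 96.5), nmb (168 CPM, next 80.4) and zfhx3 (763 CPM, next 547) were high and zbtb18 (390.3 CPM, next 743) was low. In O. nasuta fish 3, oxt (163 CPM, next 29.9) and pomc (22.9 CPM, next 3.22) were high and adcy7 (26.2 CPM, next 58.2) was low. O. nasuta fish 1 was high in kcnh5 (129 CPM, next 88.9) and fish 4 low in mafb (29.0 CPM, next 59.9). In O. ventralis fish 1, gal (39.3 CPM, next 7.33), oprd1 (18.1 CPM, next 6.70) and six6 (36.3 CPM, next 9.77) were high. O. ventralis fish 3 was high in maneal (37.0 CPM, next 28.1) and ppl (17.4 CPM, next 4.02), and fish 5 in syndig1l (151 CPM, next 109) and zic2 (107 CPM, next 53.7). The cause of these values was not tested.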

How the results depend on the processing

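The numbers of genes that differed in the diencephalon stayed within a factor of 1.5 under every alternative. Without the terms for each fish (no replicate block) they were 2080 in O. nasuta, 2362 in O. ventralis and 1632 in both, with 117 and 134 beyond a log2 fold change of 2, 116 and 159 above each part, 28 and 55 below each part and 3 that differed between the species; among the named genes this lost the calls of oxt and mylpf in O. nasuta (adjusted p of 0.101 and 0.088) and of etv5 and satb1 in O. ventralis (0.205 and 0.055). Without the cerebellum libraries, 66 genes in O. nasuta and 71 in O. ventralis passed beyond 2, and 43 and 82 were below each part. In that setting 37 of 245 calls of named genes were lost, and the log2 fold change turned for cck (−0.10) and trhr (−0.13) in O. nasuta and for drd2 (−0.34) and epha5 (−0.19) in O. ventralis. Without the olfactory bulbs, 177 and 207 genes passed beyond 2, 204 and 277 were above and 81 and 134 below each part, and 19 differed between the species. Without a filter, 40 genes were below each part in O. nasuta and 27 differed between the species. DESeq2 gave 87 genes beyond 2 in O. ventralis. limma-trend, added after the data had been seen, gave 47 and 58 beyond 2, lost 21 calls of named genes, that of pomc in O. nasuta among them (0.78, adjusted p = 0.285), and turned the median of the thalamic list to −0.1 and −0.18. The cause of these shifts was not tested, beyond the parts, genes and tests that each alternative leaves out or replaces.

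With single fish left out, 1758 to 2161 genes differed in O. nasuta, 1972 to 2410 in O. ventralis and 1431 to 1628 the same way in both. Beyond 2 there were 104 to 118 and 110 to 137, above each part 82 to 119 and 119 to 179, below each part 14 to 28 and 36 to 51, and 2 to 26 genes differed between the species. The 14 belong to the fit without O. nasuta fish 5 and a count of 15 to that without fish 1, and the 26 to that without O. nasuta fish 5.

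Depth limits low genes: 3 reads correspond to 3.76 to 9.45 CPM in the diencephalon, so that peptide and hormone genes with few reads per library could not be ranked. Adjusted p-values rest on 5 fish per species from 1 dissection series each. DESeq2 gave no adjusted p for pomc. The log-scale mean of the other parts gives much weight to parts in which a gene has few reads. For 28 named genes another part held no read in at least 1 species, and their fitted changes there depend on the prior count. Among these genes are gsx1, shox2, nmb, comp, chrm5, pnmt, pomc, rd3l, dmrta2, six6, gal, cck and oxt.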
